A study of Mus musculus with 6 samples.

Results

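The genes described here are the haemoglobin and red cell genes of the mouse, 8 symbols chosen by name: the adult alpha globin genes Hba-a1 and Hba-a2, the adult beta globin genes Hbb-bs and Hbb-bt, the haem enzyme gene Alas2, the membrane protein genes Slc4a1 and Epb42, and the globin chaperone gene Ahsp. They were matched by gene symbol, and 7 of the 8 were found among 55401 genes. Ahsp was not analysed here. The samples were 3 epithelioid hemangioendothelioma tumours (EHE, a cancer of endothelial cells) taken from the peritoneal surface and 3 livers, all from C57BL6 mice. The title of the series describes a genetically engineered mouse model. The engineered alleles, the age and sex of the mice, any treatment, flushing of blood from the tissues and whether the livers came from tumour-bearing mice are not stated in the sources used here. Nor do the labels tie each sample to an animal of its own, so every p-value reflects the spread among these 6 samples alone, which may be technical.

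Red cells carry oxygen on haemoglobin, a tetramer of alpha and beta globin chains that each hold a haem group. In the mouse, circulating reticulocytes and young red cells keep globin messenger RNA after the nucleus has been expelled, so red cell transcripts in a solid tissue can come from the blood it holds. Haem is made in nearly all cells from a first step catalysed by an ALAS enzyme, encoded by Alas2 in erythroid cells and by Alas1 elsewhere, with the liver a major site of haem synthesis outside the marrow. In bulk tissue, fewer cells of a type and less RNA per cell cannot be told apart.

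Libraries of polyadenylated RNA held 33881392 to 40277346 counts each. Endothelial genes marked the tumours and hepatocyte genes the livers: the 10 genes of an endothelial list were all higher in tumours and the 10 of a hepatocyte list all lower, led by Podxl, a sialomucin (log2 fold change 7.57), Ecscr (6.18), Cps1, a urea cycle enzyme (-16.59), and Serpina1a, an antitrypsin gene with 3 counts in all tumours together (ratio of liver to tumour counts 166039, 95% exact interval 56815 to 805144, counting error only). Tumour 2 stood apart by its skeletal muscle transcripts, with 14198 CPM (counts scaled to library size) summed over 10 muscle genes, against 1821 CPM in tumour 1 and 3136 CPM in tumour 3. Its endothelial sum was the lowest, 2377 CPM against 5352 and 4577 CPM in tumours 1 and 3. Liver 2 had counts for 33274 genes, against 19767 and 19001 in livers 1 and 3. How libraries are scaled against each other decides much of what follows. TMM, a scaling that sets the bulk of genes level between libraries, multiplied library sizes by 1.52 to 1.62 in tumours and by 0.61 to 0.68 in livers. The median log2 fold change over all genes was 0.10 with TMM and 1.38 with library totals alone.

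The adult globin genes were abundant in both tissues, and highest in 2 of the 3 tumours. Together the 4 genes took 0.547%, 0.137% and 0.791% of all counts in tumours 1 to 3, against 0.108%, 0.0674% and 0.0548% in livers 1 to 3. Tumours 1 and 3 held several times the share of any liver, while tumour 2 lay just above liver 1. With TMM the summed level was 3609, 889.9 and 4878 CPM in tumours 1 to 3, against 1718, 990.5 and 895.7 CPM in livers 1 to 3. Tumour 2 then fell below all 3 livers, so the groups overlapped on this scale and did not overlap on shares of all counts. The summed level was 3126 ± 2038 CPM in tumours, against 1201 ± 450.0 CPM in livers (SD, n = 3 in each group). The difference of 1.12 in mean log2 CPM did not pass a two-sided exact permutation test (p = 0.4), and with library totals the p was 0.1, the smallest that 3 samples against 3 can give.

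**Figure D1:**
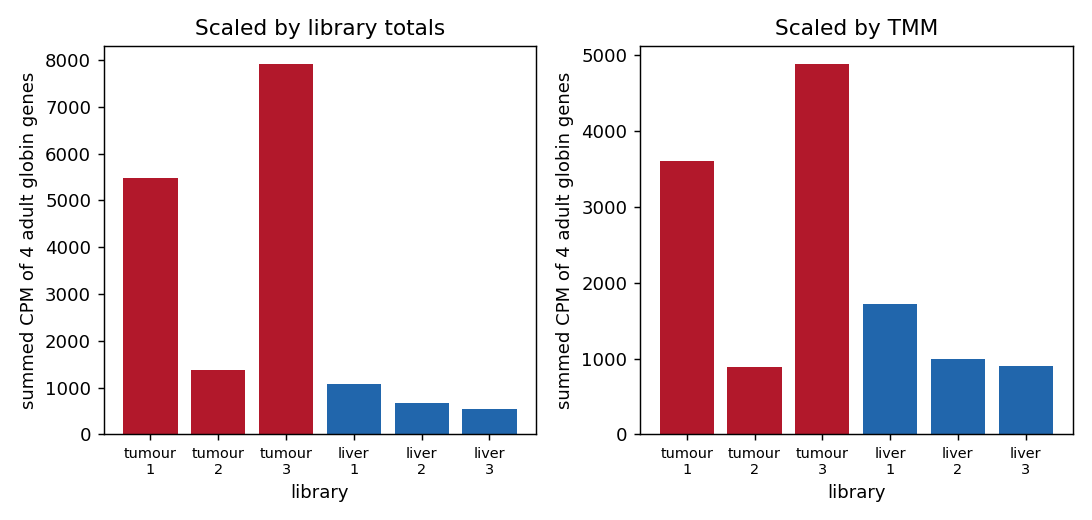
Summed level of Hba-a1, Hba-a2, Hbb-bs and Hbb-bt in each library, in CPM by library totals (left) and in TMM-scaled CPM (right), with 1 bar per library, tumours in red and livers in blue. Tumours 1 and 3 stand above all livers in both panels, and tumour 2 is above the livers on the left (1368 CPM) and below them on the right (889.9 CPM).

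The globin genes come in near-identical pairs, and the next sequences show how little separates them. In GENCODE transcripts (mouse release 21, GRCm38) the coding sequences of Hba-a1 and Hba-a2, each 429 bases long, differed at 1 position, C381T, counted from the first base of the start codon with the base of Hba-a1 first. Those of Hbb-bs and Hbb-bt, each 444 bases, also differed at 1 position, C417T, with the base of Hbb-bs first. The stretches around these positions are given 5′ to 3′ on the coding strand, with the differing base in capitals.
Hba-a1: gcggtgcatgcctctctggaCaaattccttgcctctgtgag
Hba-a2: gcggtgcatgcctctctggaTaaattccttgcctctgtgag
Hbb-bs: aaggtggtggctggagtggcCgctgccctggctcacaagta
Hbb-bt: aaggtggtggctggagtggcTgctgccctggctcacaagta
Over the longest protein-coding transcript of each gene, 56.5% of 100-base windows of Hba-a1 occurred unaltered in Hba-a2 and 74.5% of those of Hba-a2 in Hba-a1. For the beta pair the shares were 62.6% of Hbb-bs windows and 54.8% of Hbb-bt windows. The counting of reads common to a pair is not stated, so the level of each single globin gene is uncertain. The sum does not depend on how such reads were divided within a pair, but it does depend on whether they were counted.

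Hba-a1 (ENSMUSG00000069919, chromosome 11, 32283511 to 32284465 on the plus strand, GRCm38) had 1372, 333 and 1791 CPM in tumours 1 to 3, against 595, 363 and 298 CPM in livers 1 to 3 (TMM-scaled). Tumours 1 and 3 lay above every liver and tumour 2 lay among the livers. Its log2 fold change was 1.48 (SE 0.62, edgeR quasi-likelihood adjusted p = 0.0762), which did not pass. Hba-a2 (ENSMUSG00000069917, chromosome 11, 32296489 to 32297298), the other adult alpha gene, had 657, 144 and 735 CPM in tumours, against 200.3, 122 and 107 CPM in livers. Tumour 2 was again the only tumour within the range of the livers. Hba-a2 rose by 1.84 on the log2 scale (SE 0.60, edgeR adjusted p = 0.0343).

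Hbb-bs (ENSMUSG00000052305, chromosome 7, 103826534 to 103828096 on the minus strand), the more abundant beta gene, had 1358, 375 and 2081 CPM in tumours 1 to 3, against 859, 471 and 454 CPM in livers 1 to 3. Here tumour 2 was below all livers, and its change of 1.10 on the log2 scale (SE 0.62) did not pass (edgeR adjusted p = 0.167). Hbb-bt (ENSMUSG00000073940, chromosome 7, 103812524 to 103813996 on the minus strand) had 221, 38.1 and 271 CPM in tumours, against 64.2, 34.2 and 36.9 CPM in livers. Tumours 1 and 3 were above every liver, and tumour 2 lay between livers 1 and 3. Hbb-bt rose by 1.97 on the log2 scale (SE 0.67, edgeR adjusted p = 0.0395).

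Alas2 (ENSMUSG00000025270, chromosome X, 150547375 to 150570638 on the plus strand), the erythroid form of the first haem enzyme, had 116, 20.3 and 166 CPM in tumours 1 to 3, against 68.8, 43.5 and 41.4 CPM in livers 1 to 3. Tumour 2 held less than any liver. The change of 0.98 on the log2 scale (SE 0.66) did not pass (edgeR adjusted p = 0.245). Exons of Alas2 overlap those of Apex2, a DNA repair gene on the minus strand, and the handling of strand in the counts is not given. Apex2 was at 5.12 to 6.71 CPM in tumours, against 5.60 to 8.92 CPM in livers, below Alas2 in all 6 libraries.

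The membrane protein genes had the largest fitted changes. Slc4a1 (ENSMUSG00000006574, chromosome 11, 102348824 to 102366203 on the minus strand) encodes band 3, the anion exchanger that anchors the red cell skeleton. It had 14.5, 2.97 and 28.5 CPM in tumours 1 to 3, against 3.73, 1.82 and 1.77 CPM in livers 1 to 3. Tumour 2 lay between liver 1 and the other livers. Slc4a1 rose by 2.65 on the log2 scale (SE 0.79, edgeR adjusted p = 0.0237). Epb42 (ENSMUSG00000023216, chromosome 2, 121017891 to 121037072 on the minus strand) encodes protein 4.2, which ties band 3 to that skeleton. It had 2.91, 0.820 and 4.83 CPM in tumours, against 0.324, 0.607 and 0.165 CPM in livers, from 178, 48 and 301 counts in tumours against 8, 14 and 4 in livers. It was the only gene of the 7 for which every tumour exceeded every liver with TMM. Epb42 rose by 2.96 on the log2 scale (SE 0.81, edgeR adjusted p = 0.0171).

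**Figure D2:**
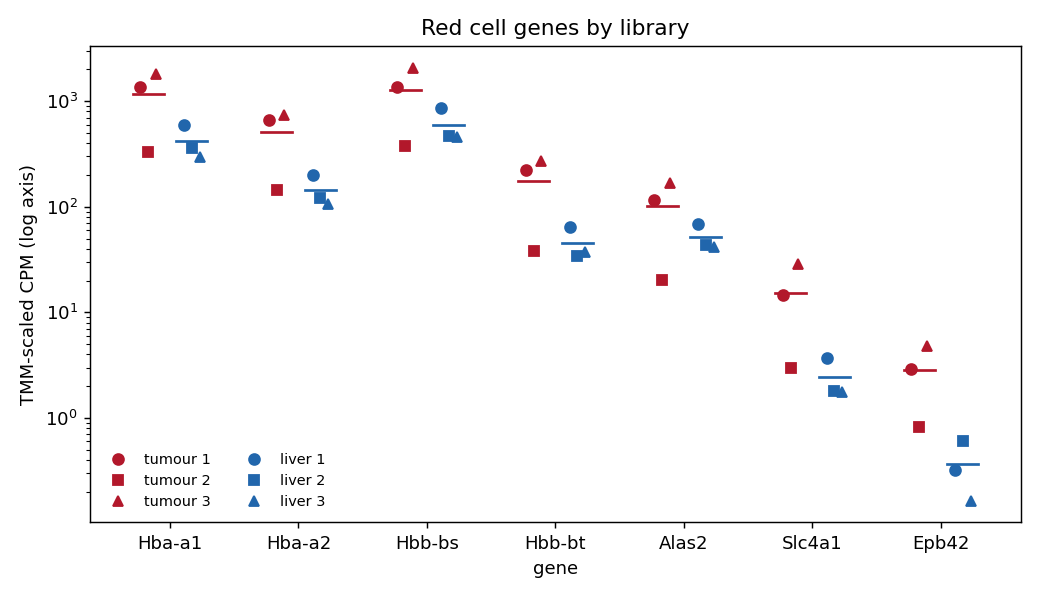
TMM-scaled CPM of the 7 red cell genes (log axis) in each library, with 1 marker per library, tumours in red, livers in blue and a horizontal line at each group's mean. Tumour 2 (red square) lies below tumours 1 and 3 for each gene, and the markers of the groups are separate only for Epb42.

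Of the 7 genes 4 were higher in tumours and none were lower at an adjusted p under 0.05, where 29.5% of all 17387 genes tested were higher and 28.7% were lower (58.2% in either direction). At an unadjusted p under 0.05, 5 of the 7 passed. The median log2 fold change of the 7 genes was 1.84, against 0.10 over all genes. With library totals alone all 7 were higher in tumours, beside 61.5% of all genes, with a median of 3.13 against 1.38. On that scale 6 of the 7 had every tumour above every liver, as did 66.5% of all genes, and with TMM 1 of the 7, beside 35.1%. The exception with library totals was Alas2. Of all called genes, 50.8% were higher in tumours with TMM and 83.1% with library totals.

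The calls turned on single libraries. Without tumour 2 all 7 genes were called higher, beside 28.2% of all genes. Their log2 fold changes ran from 1.47 for Alas2 to 3.41 for Epb42. Without tumour 3, the tumour with the most globin, none were called, beside 25.2% of all genes called higher. The changes then ran from 0.42 for Alas2 to 2.36 for Epb42. Without tumour 1 the genes called were 2, Slc4a1 and Epb42, without liver 1 Slc4a1 alone, without liver 2 Epb42 alone, and without liver 3 none. Without tumour 3 and without liver 3, 2 of the 7 had an unadjusted p under 0.05 in edgeR. Limma-voom, another test on the same counts, called 0 of the 7 with 1 at an unadjusted p under 0.05. It called 27.1% of all genes higher. DESeq2 called 5 of the 7 higher, beside 32.1% of all genes. On log2(FPKM + 1) limma tested 5 of the 7 and called 4 higher, all except Alas2, beside 63.1% of 13640 genes. Each fold change fitted for these genes was above 0 in all of these fits. Tumour 2, lowest in the red cell genes, was also highest in skeletal muscle genes and lowest in endothelial genes, and the part of its tissue makeup in the red cell result was not tested.

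**Figure D3:**
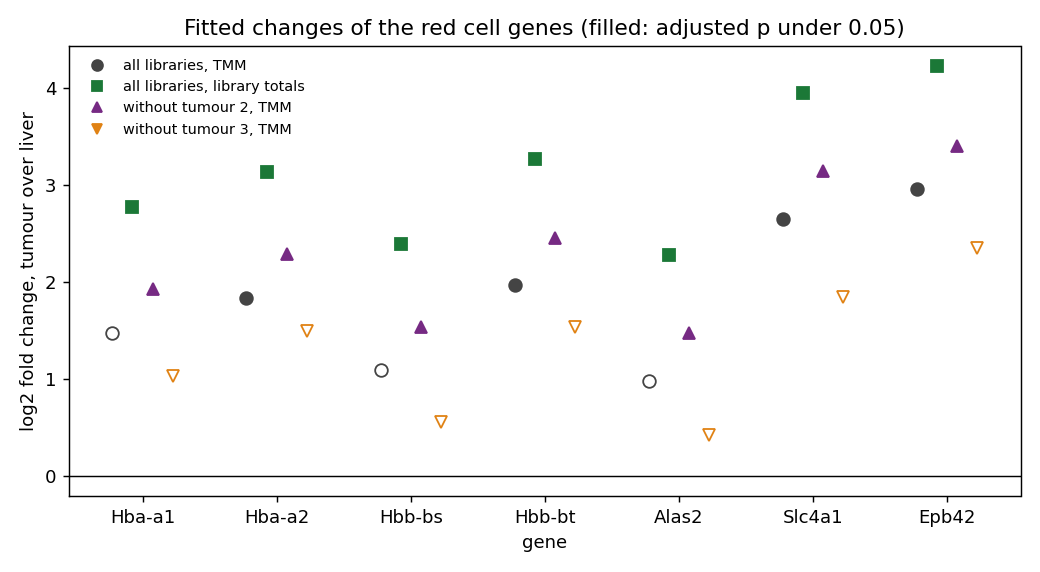
Log2 fold change, tumour over liver, of the 7 red cell genes in 4 fits: all libraries with TMM, all libraries with library totals, and TMM without tumour 2 or without tumour 3; filled markers have an adjusted p under 0.05. Every marker lies above 0; with TMM 4 are filled with all libraries, 7 without tumour 2 and 0 without tumour 3.

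The make-up of globin RNA within a library does not depend on scaling between libraries. Alpha globin genes took 56.2%, 53.6% and 51.8% of adult globin counts in tumours 1 to 3, against 46.3%, 49.0% and 45.2% in livers 1 to 3. All tumours lay above all livers, by 7.06 percentage points on average (two-sided exact permutation p = 0.1, the smallest possible). From the deposited FPKM values (fragments scaled to transcript length and library depth), made by Cufflinks, the alpha share was 65.3%, 65.6% and 58.7% in tumours and 58.0%, 61.7% and 58.4% in livers. On FPKM the groups overlapped (exact permutation p = 0.2).

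The split within each pair behaved in the same manner. Hba-a2 took 32.4%, 30.1% and 29.1% of adult alpha counts in tumours 1 to 3, against 25.2%, 25.1% and 26.4% in livers 1 to 3, a difference of 4.98 percentage points without overlap (exact permutation p = 0.1). From FPKM the Hba-a2 share was higher, at 50.7% to 55.5% in tumours and 50.7% to 52.1% in livers, and the groups overlapped (exact permutation p = 0.3). Hbb-bt took 14.0%, 9.23% and 11.5% of adult beta counts in tumours 1 to 3, against 6.96%, 6.77% and 7.53% in livers 1 to 3, a difference of 4.51 points without overlap (exact permutation p = 0.1). From FPKM the Hbb-bt share was 26.7% to 30.4% in tumours and 27.8% to 28.0% in livers, again with overlap (exact permutation p = 0.4). Exact binomial 95% intervals of the count shares were at most 1.75 percentage points wide and cover counting error only, so the gap between counts and FPKM is larger than counting error. The contribution of reads common to both genes of a pair in that gap was not tested.

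**Figure D4:**
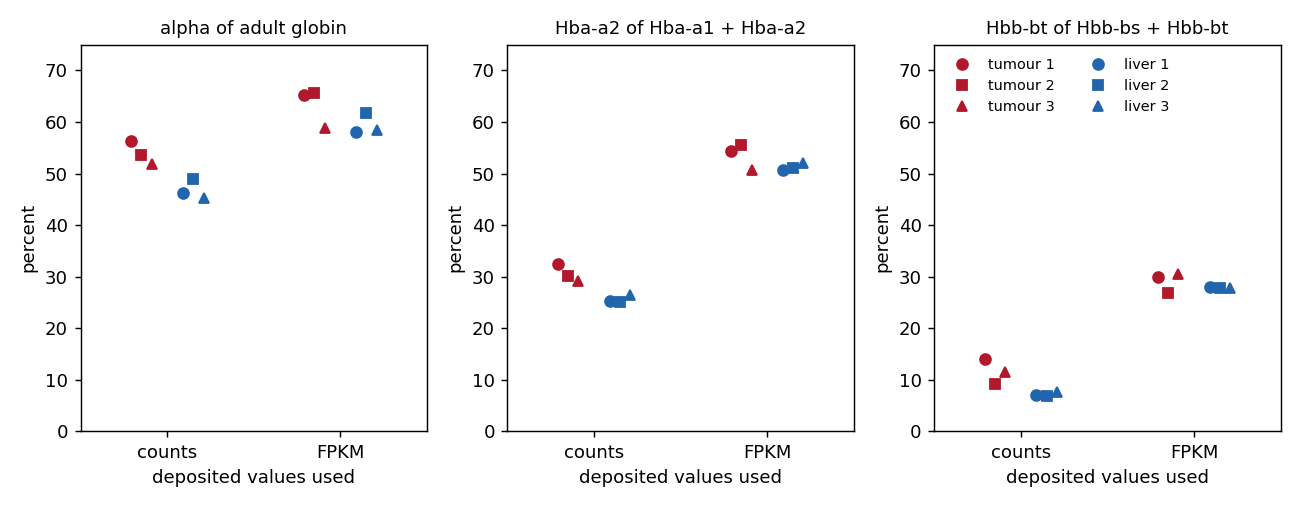
Share in percent of alpha genes among the 4 adult globin genes (left), of Hba-a2 among both alpha genes (middle) and of Hbb-bt among both beta genes (right), from deposited counts and from deposited FPKM, with 1 marker per library. The tumour and liver markers are separate for counts in each panel and overlap for FPKM.

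Levels between genes can be set side by side only per length, here in FPKM. Of the 7 genes Hba-a2 was highest in all 3 tumours, at 9051, 2117 and 11072 FPKM, and in livers 2 and 3, while Hbb-bs was highest in liver 1, at 1701 FPKM. The order was not the same from counts: deposited counts per kilobase of exon put Hbb-bs first, Hba-a1 next and Hba-a2 after them in all 6 libraries (107988, 103214 and 60186 in tumour 1). In the livers Hba-a1, Hba-a2 and Hbb-bs lay close together, at 811 to 1609, 881 to 1653 and 864 to 1701 FPKM, so their FPKM order there did not exceed the spread between libraries. Hbb-bt followed at 535 to 4667 FPKM in tumours and 333 to 662 FPKM in livers, then Alas2 at 20.7 to 157 and 18.0 to 27.7 FPKM. Slc4a1 stood at 0.824 to 8.67 FPKM in tumours and 0.149 to 0.465 FPKM in livers. Epb42 was lowest, at 0.334 to 2.30 and 0.0367 to 0.0877 FPKM.

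Set against globin, the other genes did not keep a fixed ratio between tissues, a comparison chosen after the values were seen and not tested. Alas2 had 32.3, 22.8 and 34.1 counts per 1000 adult globin counts in tumours 1 to 3, against 40.0, 43.9 and 46.3 in livers 1 to 3. Its ratio was lower in every tumour than in every liver. Slc4a1 had 4.02, 3.34 and 5.84 counts per 1000 globin counts in tumours, against 2.17, 1.84 and 1.98 in livers. Epb42 had 0.808, 0.922 and 0.989 in tumours, against 0.189, 0.613 and 0.184 in livers. For these membrane genes the ratio was higher in every tumour. On FPKM the groups were also separate and in the same order for all 3 genes, with Alas2 at 3.57 to 4.37 per 1000 globin FPKM in tumours and 4.92 to 6.45 in livers.

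Promoter sequences are shown here as a description. All 7 genes, Slc4a1 and Epb42 included, had the same order of tumours, 3 above 1 above 2. That order therefore does not set apart the genes whose promoters are shown. RefSeq promoters on GRCm38.p6 were found for 6 of the 7 genes, all except Slc4a1. The 250 bases before the RefSeq start were searched on both strands for GATAA (a core of GATA factor sites), CACCC (a core of KLF factor sites), CCAAT and TATAA, which are in capitals below, 5′ to 3′ on the gene's strand. The windows were chr11:32283422-32283671 for Hba-a1, chr7:103827929-103828178 for Hbb-bs, chr7:103813924-103814173 for Hbb-bt and chrX:150547167-150547416 for Alas2.
Hba-a1: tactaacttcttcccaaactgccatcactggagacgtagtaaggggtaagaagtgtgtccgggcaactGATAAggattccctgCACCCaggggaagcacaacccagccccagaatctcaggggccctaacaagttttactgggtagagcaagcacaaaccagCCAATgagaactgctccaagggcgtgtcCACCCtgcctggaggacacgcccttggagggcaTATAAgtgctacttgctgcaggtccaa
Hbb-bs: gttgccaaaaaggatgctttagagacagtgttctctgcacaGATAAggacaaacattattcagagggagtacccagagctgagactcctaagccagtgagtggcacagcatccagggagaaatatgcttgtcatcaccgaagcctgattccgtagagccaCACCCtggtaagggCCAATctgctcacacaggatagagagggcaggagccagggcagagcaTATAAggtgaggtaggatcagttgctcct
Hbb-bt: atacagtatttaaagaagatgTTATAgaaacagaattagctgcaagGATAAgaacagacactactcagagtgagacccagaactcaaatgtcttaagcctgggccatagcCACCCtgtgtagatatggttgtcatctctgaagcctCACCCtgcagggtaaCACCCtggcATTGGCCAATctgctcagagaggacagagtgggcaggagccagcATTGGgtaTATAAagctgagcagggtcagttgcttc
Alas2: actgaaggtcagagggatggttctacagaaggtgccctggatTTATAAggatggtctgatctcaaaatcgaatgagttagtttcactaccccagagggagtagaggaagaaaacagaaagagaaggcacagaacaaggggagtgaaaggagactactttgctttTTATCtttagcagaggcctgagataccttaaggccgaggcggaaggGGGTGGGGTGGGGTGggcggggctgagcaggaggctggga
The alpha promoters shared an identical stretch of 247 bases, since their windows differ only by a start placed 3 bases apart, whereas the longest stretch common to the beta windows was 14 bases. Each of the 4 globin windows held all 4 motifs, with a TATAA on the gene's strand beginning 27 to 30 bases before the start and a CCAAT on that strand 75 to 91 bases before it. Hbb-bt also held a TATAA and 2 copies of CCAAT on the opposite strand. Alas2 held GATAA on the opposite strand 86 bases before its start, 3 adjacent copies of CACCC on the opposite strand and no CCAAT, and Epb42 held GATAA and no CACCC. Among 32851 promoter windows of the same length, 22.6% held GATAA, 52.0% CACCC, 33.8% CCAAT and 22.8% TATAA on either strand. A match describes these letters only.

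Genes of the other globins were at or near 0 in both tissues. All 7 listed (Hba-x, Hbb-y, Hbb-bh0, Hbb-bh1 and Hbb-bh2, which are embryonic or minor genes of the clusters, and the theta genes Hbq1a and Hbq1b) missed the filter on low counts. Their summed level was 0.103 to 1.14 CPM in tumours, against 0.165 to 0.406 CPM in livers. Hbq1b was the most abundant, with 14, 4 and 54 counts in tumours 1 to 3, against 6, 0 and 2 in livers 1 to 3.

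Genes of haem synthesis went the other way from the globins. Of 12 tested, 11 fell (91.7%, beside 28.7% of all genes) and none rose in tumours, with a median log2 fold change of -2.15. Alas1, the form of the first enzyme used outside red cells, had 38.1, 54.4 and 25.6 CPM in tumours 1 to 3, against 896, 959 and 1279 CPM in livers 1 to 3, and fell by 4.73 (SE 0.39). Alad, the next enzyme, fell by 4.31 (SE 0.30) and Fech, which inserts iron, by 2.02 (SE 0.20). Slc25a37, an importer of mitochondrial iron in red cell precursors, did not pass (log2 fold change -0.18, edgeR adjusted p = 0.66). With library totals 7 fell (58.3%, beside 12.5% of all genes) and 1, Slc25a37, rose, with a median of -0.87. In FPKM the balance of the first enzymes differed by library: Alas2 was above Alas1 in tumour 1 (111 against 57.3) and tumour 3 (157 against 34.9), and below it in tumour 2 (20.7 against 67.2) and in all livers (18.0 to 27.7 against 467 to 714).

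Of 19 red cell membrane and skeleton genes tested 8 rose (42.1%), 5 fell (26.3%) and 6 did not pass, with a median of 1.96, beside 29.5% higher and 28.7% lower over all genes. Tmod1, a tropomodulin, rose by 6.31 (SE 1.47) and Dmtn, dematin, by 5.76 (SE 0.29), while the amino acid carrier Slc43a1 fell by 1.65 (SE 0.39) and the water channel Aqp1 by 1.58 (SE 0.19). With library totals 11 rose (57.9%, below the 61.5% of all genes) and none fell, so both falls depend on the scaling. Tmod1 is also a muscle gene: it had 2.23, 21.2 and 4.22 CPM in tumours 1 to 3, highest in the library with the most muscle transcripts, and its 8 liver counts all lay in liver 2. The ankyrin gene Ank1, which muscle also expresses, had 7.55, 42.5 and 12.1 CPM, highest in tumour 2, where the globins were lowest.

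Among regulators of red cell formation, Klf1 and Gata1 define the lineage. Klf1 had 0.229, 0.239 and 0.192 CPM in tumours 1 to 3, against 10.4, 11.2 and 9.08 CPM in livers 1 to 3, from 12 to 14 counts per tumour and 220 to 258 per liver. Every liver lay far above every tumour, and Klf1 fell by 5.52 (SE 0.33) on the log2 scale. Gata1 had at most 10 counts in any library and was not tested. Of 12 regulators tested 5 rose (41.7%), 2 fell (16.7%) and 5 did not pass, with a median of 1.16. Over all genes 29.5% were higher and 28.7% lower. Lmo2 and Tal1, which endothelial cells also express, rose by 5.41 (SE 0.44) and 5.30 (SE 0.42). Tfr2, a transferrin receptor that hepatocytes also make, fell by 10.20 (SE 0.76). With library totals 7 rose (58.3%, below the 61.5% of all genes) and the same number, 2, fell (16.7%, beside 12.5%).

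Of 20 late red cell genes tested 3 rose, 9 fell and 8 did not pass, with a median of -0.33 that turned to 0.97 with library totals (10 rose, 8 fell). Ube2o, a ubiquitin ligase of reticulocytes, rose by 1.67 (SE 0.32). Car1, a carbonic anhydrase of red cells named here after its values were seen, had 4, 12 and 0 counts in tumours, against 222, 242 and 136 in livers. It fell by 6.51 (SE 0.98). Pklr, a pyruvate kinase of both red cells and hepatocytes, had 2 counts in all tumours, which put its liver level 50010 times the tumour level (95% exact interval 13843 to 412961, counting error only), and Epb41l4b fell by 7.10 (SE 0.48).

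Of 13 genes tested that clear haemoglobin and haem 3 rose (23.1%), 6 fell (46.2%) and 4 did not pass, beside 29.5% and 28.7% of all genes. Their median of -0.61 turned to 0.68 with library totals. On that scale 6 rose (46.2%, below the 61.5% of all genes) and 5 fell (38.5%, beside 12.5%). Hpx, the haem-binding plasma protein hemopexin made by hepatocytes, fell by 15.13 (SE 0.99) and Ambp, the precursor of the haem scavenger alpha-1-microglobulin, fell by 12.86 (SE 1.81). Hmox1, the inducible haem oxygenase that breaks haem down, had 301, 152 and 229 CPM in tumours 1 to 3, against 64.0, 40.7 and 59.5 CPM in livers 1 to 3. Every tumour exceeded every liver, and Hmox1 rose by 2.06 (SE 0.31), as did Flvcr2, a transporter of the same family as the haem exporter Flvcr1, by 1.55 (SE 0.24).

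**Figure D5:**
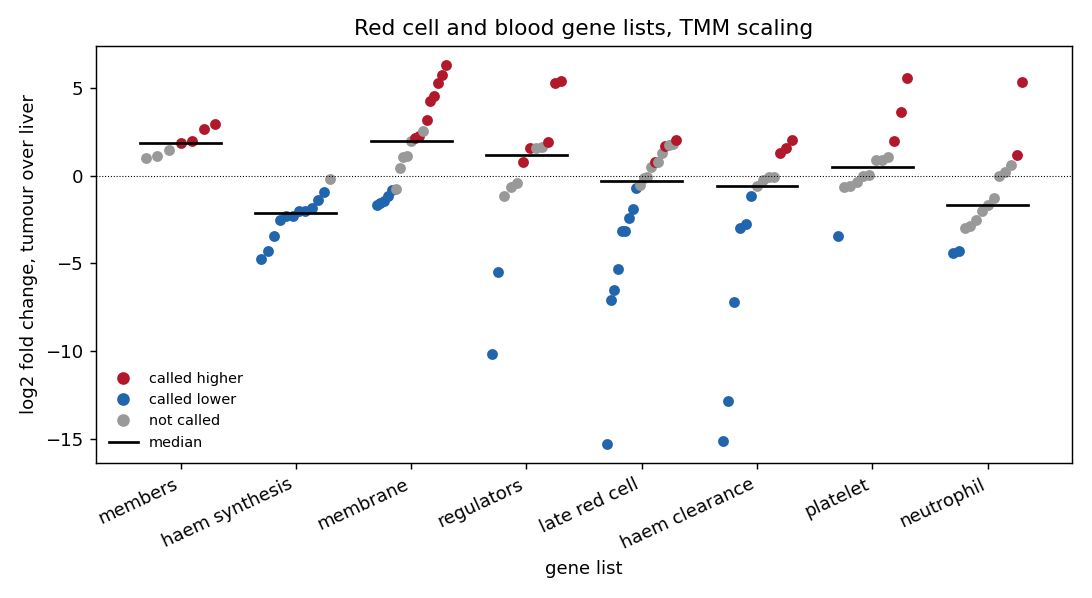
Log2 fold change, tumour over liver (TMM), of each tested gene of the red cell and blood lists, with 1 point per gene coloured by its call at an adjusted p under 0.05 and a black line at each list's median. The 7 members centre at 1.84 and the haem synthesis genes at -2.15, with 11 of 12 called lower.

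Other cells of blood were followed by lists of platelet and neutrophil genes. Of 12 platelet genes tested 3 rose, 1 fell and 8 did not pass, with a median of 0.47. The shares that rose and fell were both below those of all genes (29.5% and 28.7%). Pf4 rose by 3.65 (SE 0.39) and F13a1 by 5.57 (SE 0.83), both also expressed by macrophages and both highest in tumour 2, with 10465 F13a1 counts there against 2125 and 2495 in tumours 1 and 3. Clec1b fell by 3.43 (SE 0.76). Itgb3, an integrin chain that endothelial cells and macrophages also express, rose by 1.99 (SE 0.24), while the platelet receptor genes Itga2b, Gp1ba, Gp5 and Gp9 did not pass; these 5 were named after their values were seen. Of 13 neutrophil genes tested 2 rose and 2 fell (15.4% each, below the 29.5% and 28.7% of all genes). The other 9 did not pass, and the median was -1.66. Mmp9 rose by 5.36 (SE 0.58) and Csf3r by 1.19 (SE 0.32). The granule genes Elane and Mpo fell by 4.43 (SE 1.04) and 4.32 (SE 1.14). Csf3r was not called without tumour 3 or without liver 2. Mpo was not called without tumour 3 or without liver 1, which held 153 of its 182 liver counts; without liver 1 it fell by 2.28. The platelet sum was 89.1, 245 and 97.1 CPM in tumours 1 to 3, against 33.6 to 41.2 CPM in livers. Without F13a1 and Pf4, the sum was 39.4, 35.3 and 39.4 CPM in tumours and 31.4 to 36.3 CPM in livers, so the ranges overlapped. These genes had the largest rises of the list, so leaving them out had to narrow the gap. The rest still held Itgb3, at 18.0 to 25.8 CPM in tumours and 4.68 to 5.90 CPM in livers. Clec1b gave 0.458 to 3.30 CPM in tumours and 12.7 to 18.4 CPM in livers. Neither sum therefore measures platelets alone.

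The genes most like the globins across the 6 libraries were found by the root mean square difference in centred log2 CPM from the summed globins, over 14484 genes at 1 CPM or more. Besides Alas2, which ranked 3, the closest included Ppbp, a platelet chemokine precursor (0.26 log2 units), Isg20 (0.29), 5033406O09Rik (0.37) and Arl15 (0.41). Isg20 is also on the late red cell list and Ppbp on the platelet list. Slc4a1 ranked 129 (0.60) and Epb42 ranked 3990 (1.00), so by this measure the membrane genes lay further from the globins than Alas2 did. The measure also grows with a tumour to liver gap unlike that of the globins. Low counts raise it too, and Epb42 had 8, 14 and 4 counts in livers 1 to 3. It therefore does not show how closely a gene followed the globins within a tissue. Ppbp had 4.85, 1.74 and 7.49 CPM in tumours 1 to 3, against 3.81, 2.08 and 1.69 CPM in livers 1 to 3. It was highest in tumour 3 and low in tumour 2 as the globins were, a likeness for which it was picked.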

How the data were processed

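The deposited counts are whole-number counts per Ensembl gene, and the deposited FPKM values come from Cufflinks 2.2.1.3 after alignment with HISAT2 2.1.0 to mm10, per the submitters' processing notes. The counting tool, annotation, strand setting and handling of shared reads are not stated. Between 55.0% and 70.7% of the values from 1 to 10 were even; if both mates of a pair were counted, counting intervals are too narrow. The series' design text speaks of human tumours, but the labels and gene symbols are of mouse. Per the labels, frozen tissue gave total RNA for DNBSeq libraries.

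Counts were tested with edgeR 4.0.16 in R 4.3.3 (filterByExpr, TMM, robust quasi-likelihood fit without covariates, Benjamini-Hochberg over 17387 genes, called under 0.05); each SE is the fold change (log2) divided by the square root of F. CPM are TMM-scaled unless stated. FPKM were tested on log2(FPKM + 1) with limma 3.58.1 for genes at 1 or more in 3 libraries, a filter that left out Slc4a1 and Epb42. DESeq2 1.42.0, limma-voom, other scalings and filters, a replicate block and leaving out each library were the alternatives. Of 53 repeated FPKM identifiers the highest row was kept. No replicates were duplicates (chi-square per degree of freedom 95.8 or more). In simulated counts of the tumour and liver comparison (16954 genes), edgeR called 77% of 4-fold and 2% of 2-fold changes, with 7 unchanged genes. The simulation changed only a small set of genes above the median level, without the shift in scaling seen between the tissues. In the real comparison 58.2% of genes were called, so these rates need not hold for it. Named genes were the members, the 2 called genes of each list with the largest change in each direction, and the 5 genes most like the globins; others are given as examples, and some are not reported here. Members, lists and rules were chosen with earlier results of these data known.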

Additional observations from a re-analysis of the deposited data

How the results depend on the processing

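All 129 fits of a red cell gene under an alternative gave a fold change above 0, and 63 of them passed. With library totals alone 10688 genes were higher and 2172 lower, and the difference in summed globin was 2.40 log2 units. On that scale 7 of the 7 red cell genes and 53 genes of the other lists (34 with TMM) were higher. Both the 53 and the 34 include all 10 endothelial genes. Every other list counted there had, by library totals, a smaller share higher than the 61.5% of all genes. Of the lists counted, only the membrane (42.1%), regulator (41.7%) and endothelial lists exceeded the 29.5% of all genes with TMM. Limma gave 8613 higher and 2031 lower genes on log2(FPKM + 1), 8608 and 2019 with + 0.1, and 9370 and 2152 with no filter. Summed FPKM put the globin difference at 2.25. From FPKM the differences in share were 3.84 (alpha), 1.11 (Hbb-bt) and 2.27 (Hba-a2) percentage points. Limma-voom called 0 red cell genes; the cause was not tested.

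Leaving out each library in turn gave 0 to 7 red cell genes called higher, 4201 to 5150 genes higher and 4286 to 5178 lower over all genes, and a globin difference from 0.64 to 1.87. Without libraries 2 of both groups, chosen after seeing the data, 7 red cell genes were called higher, beside 32.9% of all genes. Same-numbered libraries did not deviate together (correlations of -0.03, -0.01 and -0.03), and none correlated best with its own number. With a replicate block 1 red cell gene, Slc4a1, was called higher, beside 26.0% of all genes. With no low-count filter Hba-a1 and Hbb-bs passed and Hbb-bt did not (adjusted p = 0.201). Of 543 fits of the other named genes, 543 kept their direction and 519 their call. Epb42, with 4 to 14 counts per liver, is limited by depth.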
